A study of Mus musculus with 6 samples.

Results

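The genes described are the 4 mouse Notch receptors (Notch1, Notch2, Notch3 and Notch4), the 5 canonical ligands measured (Dll1, Dll3, Dll4, Jag1 and Jag2) and the related ligand Dlk1. They were chosen by name, and all 10 had a probe set of their own among the 22180 genes of the array. The cells were KP1, a small cell lung cancer line from a mouse model in which Rb, p53 and p130 are all knocked out, so the controls carry the same deletions. Control cells received a vector that expresses GFP alone, after an internal ribosome entry site, and the other cells received the Notch1 intracellular domain (N1ICD) followed by the same GFP cassette. GFP-positive cells were sorted 48 hours after transfection, and total RNA of 3 samples per group was hybridized to Affymetrix Mouse Gene 2.0 ST arrays. KP1 is 1 cell line, so the replicates, which the labels call biological, measure the spread between samples of that line and not between tumors.

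Notch signaling passes between touching cells. A Delta or Jagged ligand on the sending cell pulls on a Notch receptor of the receiving cell, the receptor is cut, and its intracellular domain enters the nucleus and joins RBPJ to switch on target genes such as the HES and HEY repressors. In lateral inhibition these repressors lower proneural factors and, with them, the Delta ligands of the receiving cell, so that a cell with active Notch sends less signal to its neighbors. In lateral induction the receiving cell instead raises a ligand, for which Jag1 is the usual example. Comparing N1ICD with control arrays asks which of these patterns the receptor and ligand genes followed when the active form of Notch1 was supplied.

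In N1ICD cells the Delta ligands Dll1 and Dll3 fell 3.10-fold and 2.70-fold, Jag2 fell 1.42-fold, Dlk1 rose 2.2-fold, and Notch1, the transfected gene, rose 3.01-fold. Of the 10 genes, 2 were higher (Notch1 and Dlk1), 3 were lower (Dll1, Dll3 and Jag2) and 5 did not pass the test. The threshold was an adjusted p under 0.05 from limma with Benjamini-Hochberg adjustment over all genes. By the same rule 7.10% of all genes changed, 3.82% higher and 3.27% lower. The 3 arrays of one group lay above all 3 of the other for 8 of the 10 genes, 4 in each direction. Over all genes this held for 26.1%, with 11.1% higher and 15.0% lower in N1ICD. The median log2 difference was 0.20 for the 10 genes and -0.02 for all genes. All levels below are log2 RMA values and all changes are N1ICD minus control on that scale. A level depends on the probes of its set, so levels are not ranked between genes.

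**Figure D1:**
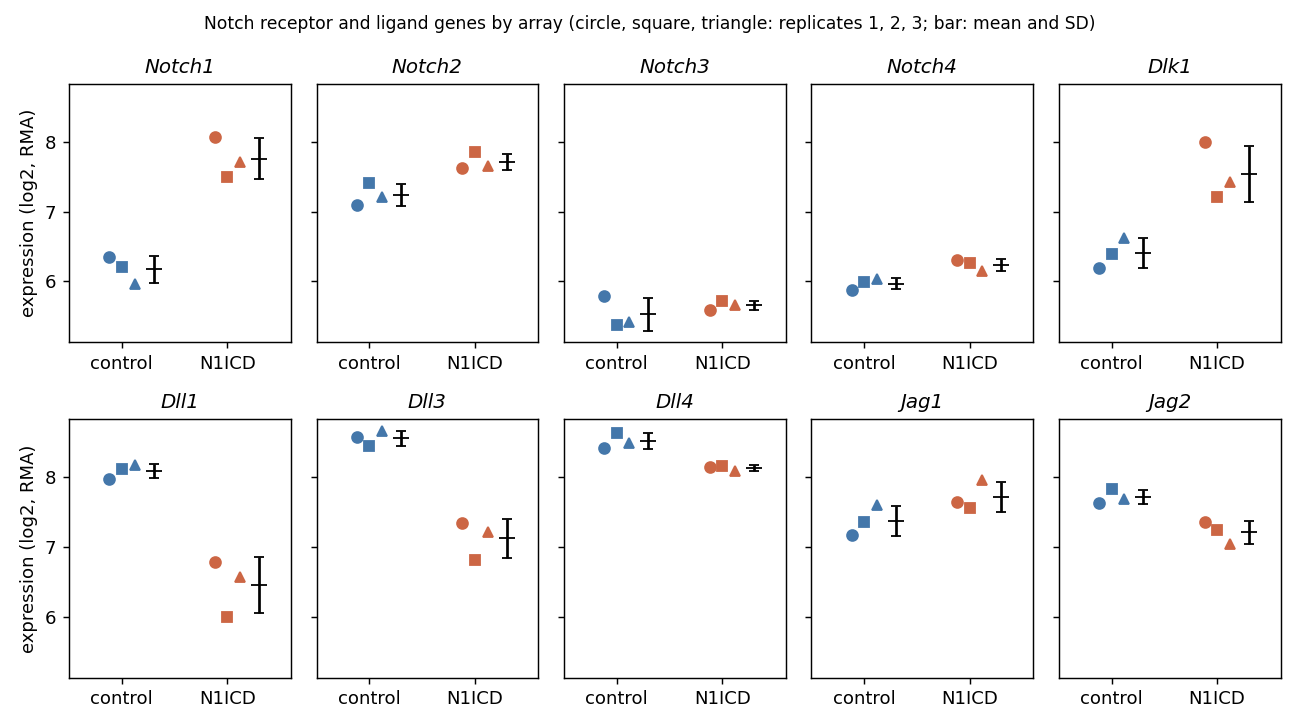
Log2 RMA expression (vertical axis) of the 10 genes in the 3 control arrays (blue) and the 3 N1ICD arrays (orange), with circles, squares and triangles for replicates 1, 2 and 3 and black bars for the mean and SD. The groups of Notch3 and Jag1 overlap. Those of the other 8 genes do not, and the widest gaps are at Notch1, Dll1 and Dll3.

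The promoters of the 3 ligands that fell are shown first, because Dll1 and Dll3 are known targets of proneural factors, which bind E-box sequences, and Jag2 serves for comparison. Promoter sequences were RefSeq's for GRCm38.p6, matched by symbol for all 10 genes (11 start sites, since Dll1 has a second one). The 250 bases before each start were searched on both strands for the RBPJ site GTGGGAA, the E-boxes CAGCTG and CAGGTG, the E-box CACGTG, and the HES sites CACGCG and CACGAG. Capitals mark matches to these motifs other than CACGTG, which had no match in any of the 11 windows. The windows are chr17:15376933-15377182 for Dll1 (outer start), chr7:28301786-28302035 for Dll3 and chr12:112929496-112929745 for Jag2, all on the minus strand, and they are printed 5′ to 3′ in the direction of the gene.
Dll1: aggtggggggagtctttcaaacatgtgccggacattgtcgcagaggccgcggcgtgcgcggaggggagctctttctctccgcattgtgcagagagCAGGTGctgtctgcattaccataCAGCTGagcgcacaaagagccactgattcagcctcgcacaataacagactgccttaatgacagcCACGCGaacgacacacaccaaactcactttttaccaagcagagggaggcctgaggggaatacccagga
Dll3: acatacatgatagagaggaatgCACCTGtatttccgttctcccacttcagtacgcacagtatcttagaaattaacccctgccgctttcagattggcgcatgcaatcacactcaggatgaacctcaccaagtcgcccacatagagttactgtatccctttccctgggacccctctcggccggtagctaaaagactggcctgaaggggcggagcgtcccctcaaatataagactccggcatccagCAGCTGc
Jag2: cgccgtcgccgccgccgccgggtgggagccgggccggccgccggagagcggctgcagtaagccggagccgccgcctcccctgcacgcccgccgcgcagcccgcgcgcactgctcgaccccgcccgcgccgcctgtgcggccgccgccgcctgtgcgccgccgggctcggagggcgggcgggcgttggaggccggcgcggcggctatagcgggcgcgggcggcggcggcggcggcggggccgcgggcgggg

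The Dll1 window held CAGGTG beginning 155 bases before the start, CAGCTG at 132 and CACGCG at 68. The Dll3 window held CAGCTG 7 bases before the start and CAGGTG, on the other strand, at 228. No window of the other 8 genes held CAGGTG, and among them Jag1 alone held CAGCTG. Of all 32851 promoter windows of this length, 13% held CAGCTG, 17.2% held CAGGTG and 2.48% held both. The second, inner start of Dll1 and the Jag2 window held none of the searched motifs. GTGGGAA was in none of the 11 windows and in 5.42% of all windows. CACGCG, in 7.62% of all windows, was also in those of Dll4, Jag1 (at 2 places) and Notch2. CACGAG, in 5.37% of all windows, was in that of Notch3. A match describes letters only, and binding was not measured.

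Among the receptors, Notch1 was examined first because it is the transfected gene. Its level was 6.35, 6.20 and 5.96 in control replicates 1, 2 and 3 and 8.07, 7.49 and 7.72 in N1ICD replicates 1, 2 and 3. Every N1ICD array was above every control array, with a gap of 1.15 between the nearest arrays of the groups. The difference was 1.59 ± 0.17 (SE, n = 3 per group; limma adjusted p = 0.000889). The sources used here give neither the part of Notch1 that its probe set covers nor the species of the insert, so RNA from the vector and from the cells' own Notch1 gene cannot be told apart.

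Notch2, a widely expressed receptor, was 7.10, 7.41 and 7.22 in the control arrays and 7.63, 7.85 and 7.65 in the N1ICD arrays. The groups did not overlap, but the difference of 0.47 ± 0.12 (SE, n = 3 per group) did not pass the test over all genes (limma adjusted p = 0.0537; 95% confidence interval 0.20 to 0.74). It passed under 7 of 18 alternative settings, with adjusted p between 0.0170 and 0.0488 there.

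Notch4, a receptor best known in blood vessel endothelium, was 5.87, 5.98 and 6.03 in the control arrays and 6.31, 6.27 and 6.15 in the N1ICD arrays. These ranges did not overlap, and the difference was 0.28 ± 0.10 (SE, n = 3 per group; limma adjusted p = 0.156). Notch3, itself a known Notch target in vascular smooth muscle, was 5.79, 5.37 and 5.42 in the control arrays and 5.59, 5.72 and 5.66 in the N1ICD arrays. Control replicate 1 lay above all N1ICD arrays, the others below them. The difference of Notch3 was 0.13 ± 0.13 (SE, n = 3 per group; limma adjusted p = 0.649), with a 95% confidence interval from -0.16 to 0.43. The control means of Notch3 (5.52) and Notch4 (5.96) lay below the median control mean of all genes, 6.16, and RMA compresses changes of dim probe sets.

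Among the Delta ligands, Dll1 (probe set 17341179), the ligand that activates receptors during neurogenesis, was 7.98, 8.11 and 8.17 in the control arrays and 6.78, 6.0 and 6.57 in the N1ICD arrays. All N1ICD arrays were below all control arrays, by at least 1.19, and N1ICD replicate 2 was the lowest. The difference was -1.63 ± 0.19 (SE, n = 3 per group; limma adjusted p = 0.00159), a 3.10-fold lower level, and Dll1 ranked 5 among all genes ordered from the largest fall. A second, dimmer Dll1 probe set (17333549) was 5.84, 5.75 and 6.01 in the control arrays and 5.69, 5.66 and 5.43 in the N1ICD arrays. That set also had separated groups, but its difference of -0.27 ± 0.12 (SE) did not pass the test in a fit of all 41345 probe sets (limma adjusted p = 0.411; 1.95% of the probe sets changed in that fit). The brighter probe set passed there too (adjusted p = 0.0126). Averaging both probe sets gave a Dll1 difference of -0.95. The change of the brighter probe set minus that of the dimmer one was -1.36, without overlap between groups (exact two-sided permutation p = 0.1). The sources used here do not give the part of the gene that each probe set covers.

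Dll3, a divergent Delta protein that acts within the cell and does not activate receptors on neighbors, was 8.57, 8.44 and 8.66 in the control arrays and 7.35, 6.81 and 7.22 in the N1ICD arrays. The groups were 1.10 apart, and N1ICD replicate 2 was again the lowest. The difference was -1.43 ± 0.15 (SE, n = 3 per group; limma adjusted p = 0.000850), a 2.70-fold lower level. Dll3 also belongs to the markers of neuroendocrine small cell lung cancer.

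Dll4, the ligand of endothelial tip cells, was 8.41, 8.64 and 8.50 in the control arrays and 8.15, 8.17 and 8.09 in the N1ICD arrays. All N1ICD arrays were below all control arrays, and the N1ICD arrays varied little (SD 0.04). The difference of -0.38 ± 0.10 (SE, n = 3 per group) did not pass the test (limma adjusted p = 0.0580; 95% confidence interval -0.61 to -0.16). It passed under 4 of 18 alternative settings, with adjusted p between 0.0163 and 0.0402 there. A further, dimmer probe set (17389855) is annotated to Dll4 together with Gm14207 and was therefore not used for Dll4. It was 6.27, 6.47 and 6.58 in the control arrays and 6.67, 6.17 and 6.14 in the N1ICD arrays, so its groups overlapped. Its difference of -0.11 ± 0.17 (SE) did not pass in the fit of all probe sets (limma adjusted p = 0.852), nor did that of the Dll4 probe set there (adjusted p = 0.157).

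Among the Jagged ligands, Jag2 was 7.62, 7.83 and 7.69 in the control arrays and 7.35, 7.24 and 7.04 in the N1ICD arrays, with no overlap. The difference was -0.51 ± 0.12 (SE, n = 3 per group; limma adjusted p = 0.0373). This call was lost without 5 of the 6 arrays. Leaving out control replicate 1, 2 or 3 gave an adjusted p of 0.0645, 0.134 or 0.102, and leaving out N1ICD replicate 2 or 3 gave 0.109 or 0.0953.

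Jag1 was 7.17, 7.35 and 7.60 in the control arrays and 7.64, 7.56 and 7.96 in the N1ICD arrays. Control replicate 3 lay above N1ICD replicate 2, so the groups overlapped. The difference was 0.35 ± 0.15 (SE, n = 3 per group; limma adjusted p = 0.246), with a 95% confidence interval from 0.0040 to 0.69.

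Dlk1, an imprinted gene for a transmembrane protein that resembles Delta but lacks the receptor-activating domain, was 6.20, 6.38 and 6.62 in the control arrays and 7.99, 7.21 and 7.43 in the N1ICD arrays. The groups did not overlap, and N1ICD replicate 1, the array with the highest Notch1 level, was also the highest for Dlk1. The difference was 1.14 ± 0.20 (SE, n = 3 per group; limma adjusted p = 0.0138), a 2.2-fold higher level. With 1 array left out at a time the adjusted p of Dlk1 stayed at or below 0.0489.

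**Figure D2:**
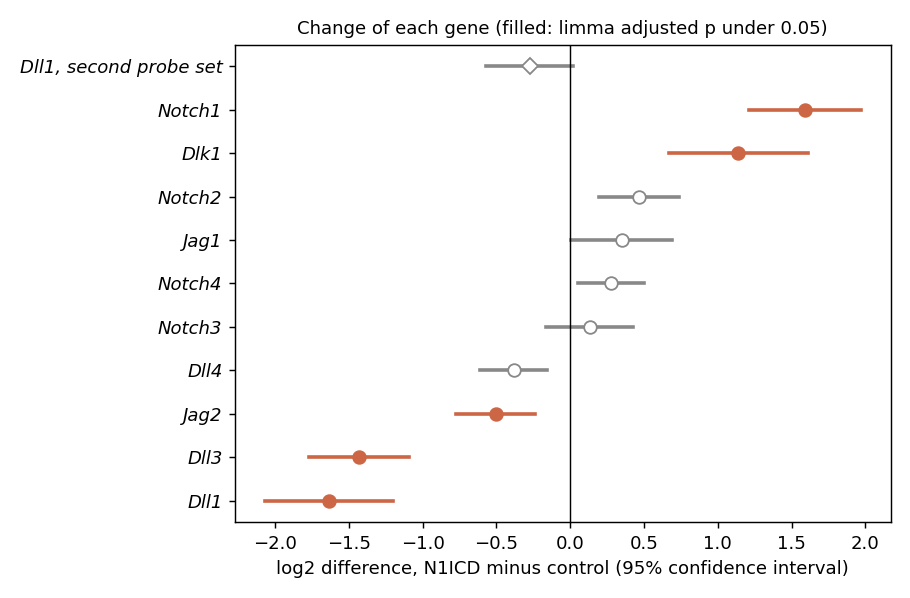
Log2 difference, N1ICD minus control (horizontal axis), with the 95% confidence interval of the limma fit, for the 10 genes in order of change and for the second Dll1 probe set (top, from the fit of all probe sets). Filled points passed an adjusted p under 0.05: Dll1, Dll3 and Jag2 on the left, Dlk1 and Notch1 on the right.

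Ordered from the largest fall to the largest rise, the changes ran Dll1, Dll3, Jag2, Dll4, Notch3, Notch4, Jag1, Notch2, Dlk1 and Notch1. Differences between genes in their change were tested on the difference of their log2 values within each array, by an exact two-sided permutation test over the 20 assignments of the 6 arrays. The smallest p this allows is 0.1. In all 15 pairs were compared: the 9 neighbors in the order, the 2 Dll1 probe sets, and 5 pairs chosen after their values were seen. The order came from the observed changes, so the 9 neighbor pairs were also set by these data. The smallest adjusted p over the 15 pairs was 0.188, so none passed.

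Dll1 and Dll3 overlapped between groups in this difference (Dll1 changed by -0.20 relative to Dll3; p = 0.2, exact). Dll3 and Jag2, the next neighbors, did not overlap and their changes differed by -0.93 (p = 0.1, exact). Jag2 and Dll4 overlapped (-0.12; p = 0.3, exact). Dll4 and Notch3 did not (-0.52; p = 0.1, exact). From Notch3 up to Notch1, all neighbors overlapped, with exact p from 0.2 to 0.8. Of the pairs chosen afterwards, Dll1 fell by 1.25 more than Dll4 and Dll3 by 1.05 more than Dll4, and Jag2 changed by -0.85 relative to Jag1. Each of these had no overlap between groups (p = 0.1, exact).

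Array by array, the members did not move in parallel. Relative to the control mean, Dll1 had log2 differences of -1.30, -2.08 and -1.51 in N1ICD replicates 1, 2 and 3, and Dll3 had -1.21, -1.74 and -1.34. Both ligands thus had their largest loss in replicate 2 and their smallest in replicate 1. Notch1 had 1.90, 1.32 and 1.55 and Dlk1 had 1.59, 0.80 and 1.03, so both had their largest rise in replicate 1 and their smallest in replicate 2. Dll4 was nearly the same in the 3 arrays (-0.37, -0.35 and -0.43). A relation between Notch1 level and ligand loss was not tested.

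**Figure D3:**
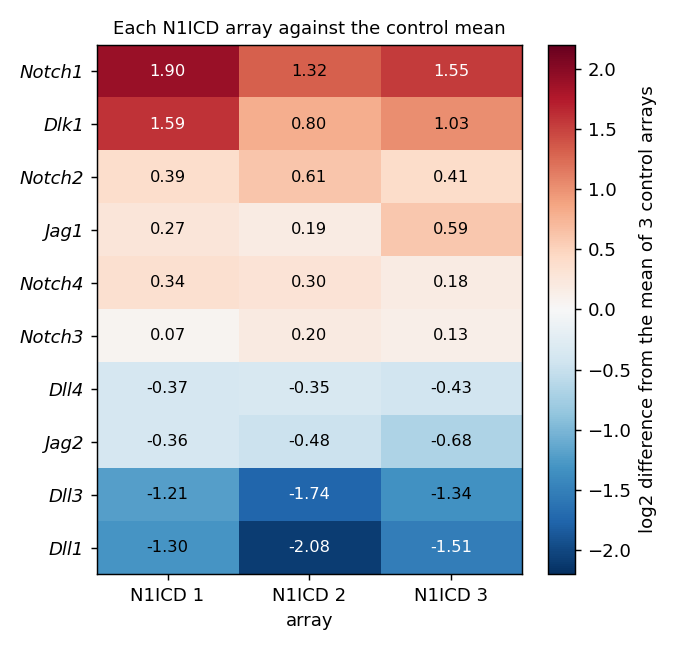
Log2 difference of each N1ICD array (columns) from the mean of the 3 control arrays, for the 10 genes (rows, in order of change). Dll1 and Dll3 are most negative in N1ICD replicate 2 (-2.08 and -1.74), while Notch1 and Dlk1 are most positive in N1ICD replicate 1 (1.90 and 1.59).

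For each member that passed the test, the 3 genes with the highest Pearson correlation over the 6 arrays were picked as a description of likeness. Each correlation spans both groups, and within-group correlation was not computed. An r above 0.95 was reached by 521 genes with Dll1, 587 with Dll3, 408 with Notch1, 147 with Dlk1 and 62 with Jag2. Closest to Dll1 were Tfcp2l1 (r = 0.999), Rcor2, a REST corepressor subunit (0.998), and Inppl1 (0.998), with log2 differences of -0.49, -1.09 and -1.28. Closest to Dll3 were Nras (0.999), Mgat4c (0.998) and the transcriptional corepressor Runx1t1 (0.998). For Notch1 they were Commd6, Kndc1 and Prelp (0.996 to 0.999), for Dlk1 Tmtc2, Ccdc85c and Syngr3 (0.996 to 0.997), and for Jag2 the Wnt coreceptor Lrp5, Nrf1 and Esyt1 (0.987 to 0.991). Of these 15 genes, 5 did not pass the test themselves: Commd6, Nras, Nrf1, Syngr3 and Esyt1 (limma adjusted p = 0.386, 0.199, 0.292, 0.190 and 0.0755).

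The rest of the pathway was described through 6 lists with 101 measured genes, of which 15 rose and 14 fell (median -0.02, as for all genes). Among 23 genes listed as canonical Notch targets, 12 rose and 0 fell, with a median difference of 0.47, by limma as above (1 was lower at an unadjusted p under 0.05). With any 1 array left out 11 rose, and Id1 lost its call in all 6 of these fits (limma adjusted p up to 0.0795). The repressors Hes5, Hey1 and Hes1 rose by 5.11 ± 0.15, 4.42 ± 0.12 and 3.46 ± 0.11 (SE). Averaging all probe sets of a gene gave a lower rise for Hes5, 2.91. Among the targets not past the test, Dtx1 (-0.37, named after its value was seen) passed as a fall without N1ICD replicate 1 (-0.54; adjusted p = 0.0414). Rbpj, the DNA-binding partner of N1ICD, had a difference of -0.15 ± 0.11 (limma adjusted p = 0.525), and of 20 genes of the RBPJ complex and receptor turnover 1 fell and 0 rose by limma (Maml2 and Dtx3, named after their values were seen, were higher at an unadjusted p under 0.05, with adjusted p of 0.183 and 0.0781, and 1 gene of the list rose with dim genes left out or an intensity trend). The gene that fell was Maml3, a coactivator of the complex (-0.65 ± 0.13 SE). With 1 array left out, Maml3 passed only when that array was N1ICD replicate 1 (limma adjusted p up to 0.0930 otherwise). Counting all kinds of alternatives, it lost its call under 8 of 18.

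Of 10 genes that ubiquitinate or internalize ligands, a step ligands need to pull on receptors, 2 fell and 0 rose by limma (median 0.04; 1 was higher at an unadjusted p under 0.05). Neurl1a, one of the Neuralized ubiquitin ligases, was 8.95, 8.94 and 9.04 in the control arrays and 8.18, 7.71 and 8.12 in the N1ICD arrays. The 2 groups were well apart, with a difference of -0.97 ± 0.14 (SE; limma adjusted p = 0.00420). Its relative Neurl1b fell by 0.56 (difference -0.56 ± 0.11 SE), and did not pass when control replicate 2, control replicate 3 or N1ICD replicate 2 was left out (adjusted p up to 0.0820), which left 1 fall in the list. Mib1, the main ligand ubiquitin ligase of vertebrates, had a difference of -0.02 ± 0.09 (limma adjusted p = 0.943), whose sign turned under 2 alternatives.

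Of 10 other proteins reported to bind Notch receptors, 1 rose and 2 fell (median -0.14). The neuronal transmembrane protein Dner was 10.7, 10.7 and 10.9 in the control arrays and 9.93, 9.75 and 10.1 in the N1ICD arrays (difference -0.87 ± 0.12 SE). The matricellular protein Ccn3 fell by 1.08 ± 0.18 (SE), and the adhesion molecule Cntn1 rose by 1.98 ± 0.16 (SE). Without N1ICD replicate 1, 4 genes of this list fell. The additional ones, named after their values were seen, were Dlk2 (-0.71; adjusted p = 0.0467), the closest relative of Dlk1, and Mfap2 (-0.67; adjusted p = 0.0210). With all arrays Dlk2 had a difference of -0.55 ± 0.17 (SE; adjusted p = 0.10), opposite in sign to Dlk1.

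On the receiving side, 2 of 15 receptor processing genes rose and 2 fell (median -0.02). The Fringe glycosyltransferases Lfng and Mfng, which set how receptors respond to Delta and Jagged ligands, fell by 1.04 ± 0.14 and 0.84 ± 0.12 (SE). Furin, the protease that matures the receptor, rose by 0.50 ± 0.10, and Aph1b, a gamma-secretase subunit, by 0.46 ± 0.11. With 1 array left out, Furin passed only when that array was N1ICD replicate 2 (adjusted p up to 0.0916 otherwise), and Aph1b never passed (adjusted p up to 0.161). The rises in this list then numbered 1 without N1ICD replicate 2 and 0 without any other array. Adam10, the protease that cuts ligand-bound receptors, had a difference of -0.03 ± 0.10 (limma adjusted p = 0.917), whose sign turned under 2 alternatives.

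Of 23 proneural and related factors, 7 fell and 0 rose by limma (median -0.11). In this list Myt1l, a neuronal zinc finger factor named after its value was seen, was higher at an unadjusted p under 0.05 (adjusted p = 0.0513), and 1 factor rose under 6 of the 18 alternatives. Some of these factors are known activators of Delta genes. Hes6, a HES protein that opposes Hes1, was 9.5, 9.51 and 9.69 in the control arrays and 8.09, 7.85 and 8.32 in the N1ICD arrays (difference -1.48 ± 0.14 SE). Atoh8 (-1.56), St18 (-1.44), Neurod4 (-1.04) and Insm1 (-0.89) also fell, and Neurod1 had a difference of -0.16 ± 0.12 (limma adjusted p = 0.545).

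**Figure D4:**
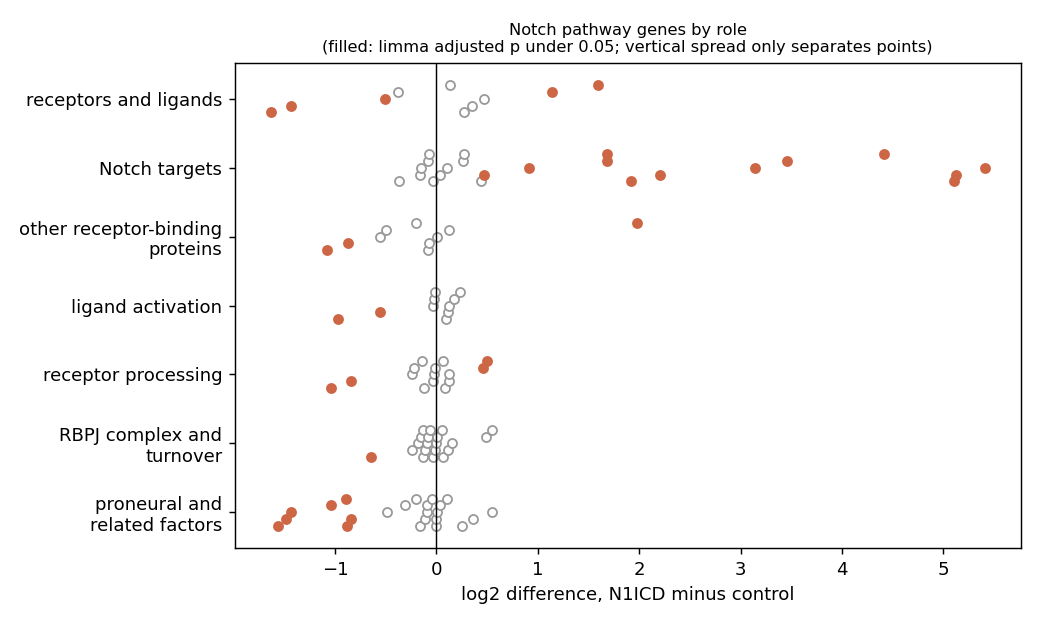
Log2 difference, N1ICD minus control (horizontal axis), for the 10 receptors and ligands and for the 6 lists of other Notch pathway genes. Each point is 1 gene, and filled points passed an adjusted p under 0.05: the Notch targets reach 5.41 on the right, while the proneural and related factors that passed lie between -1.56 and -0.84.

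The identity of the cells was checked with markers. Of 13 measured neuroendocrine markers, Resp18, Chga and Ncam1 rose (0.65, 0.64 and 0.53) and Insm1 fell. With 1 array left out, Resp18 kept its call in all 6 fits, Chga lost it in 4 (adjusted p up to 0.0638) and Ncam1 in 5 (adjusted p up to 0.0955). The 3 rises then numbered 1 without control replicate 2, N1ICD replicate 1 or N1ICD replicate 3, and 2 without any other array. The control means of the 13 markers ran from 7.0 to 11.9 with a median of 9.90. Because several receptors and ligands are typical of blood vessels, 11 endothelial markers were examined: Kdr and Tek rose (3.04 and 1.06), Erg fell (-1.28; lost without control replicates 1 or 3, adjusted p up to 0.0584) and 8 did not pass the test. The defining markers Cdh5 (-0.01) and Pecam1 (0.07) were among the latter, and the mean level of the list was 5.51 to 5.6 in the control arrays and 5.84 to 5.88 in the N1ICD arrays. Of 9 alveolar and airway markers, 3 rose (Scgb3a2 by 3.11, Scgb1a1 by 1.23 and Hopx by 0.38) and 1 fell (Sftpc, -1.71). The rises numbered 2 with any 1 array left out. Scgb3a2 and Scgb1a1 were dim in the control arrays, with means of 3.16 and 3.32. The mean level of the list was 5.56 to 5.77 in the control arrays and 6.02 to 6.09 in the N1ICD arrays. Of 9 fibroblast markers 1 rose and 1 fell (the fall was 0 without control replicate 2 or 3 or N1ICD replicate 1 or 2), of 9 macrophage markers 1 rose and 0 fell (the rise was 0 without any one of the 6 arrays), and 0 of 10 housekeeping genes passed the test, by limma as above. At an unadjusted p under 0.05, 0 macrophage markers were lower, and 1 housekeeping gene was higher and 0 were lower. The part of these markers in the changes of the receptors and ligands was not tested. In such bulk samples fewer cells with a transcript and less transcript per cell cannot be told apart.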

How the data were processed

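The 6 arrays were used as the authors deposited them, as log2 values made with RMA, per the submitters' processing notes (no version). RMA corrects background, equalizes distributions and summarizes probes. Base 2, RMA's own, was taken. RMA draws arrays to one distribution, so a change of total RNA would not show. Array medians were 5.59 to 5.72, and no array duplicated another. The platform annotation gave 1 symbol to 23521 of 41345 probe sets, several to 1814 and none to 16010. Each gene was represented by its brightest single-symbol probe set (mean of 6 arrays), leaving 22180 genes, with no filter. N1ICD and control were compared with limma 3.58.1 in R 4.3.3 (lmFit, eBayes, two-sided), after a test on simulated data. Files were read with data.table (version 1.17.8), and matplotlib 3.10.9 drew the figures.

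Each ± after a difference is the SE of the fit. The number of arrays limits precision. The members, lists and tests were chosen with earlier results of these data known. Named were all members, up to 4 changed genes per list, 11 genes whatever their result, and the 3 genes most correlated with each changed member. Of 169 list entries, 7 had no single-symbol probe set. Alternatives covered normalization, dim genes, probe sets, the variance model, array weights, a fold threshold, the replicate number as a block, and each array left out.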

Additional observations from a re-analysis of the deposited data

How the results depend on the processing

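All 10 members kept their direction under all alternatives run (18 each, 17 for Notch3, which the filter at a mean of 6 removed), and Dll3 kept its call in all 18. Notch1 and Dll1 lost theirs only without variance moderation (differences 1.59 and -1.63; adjusted p = 0.0510 and 0.0645). Dlk1 lost its call with all probe sets tested, without moderation and against a 1.5-fold change (1.14 each; adjusted p = 0.0640, 0.134 and 0.621). Jag2 lost its call under cyclic loess (-0.46), with all probe sets tested, without moderation, against a 1.5-fold change and with the replicate block (-0.51 each; adjusted p = 0.0584 with the block), and ranged from -0.58 to -0.42 with 1 array left out. Notch2 passed after quantile normalization again (0.48), cyclic loess (0.52), the filters at 5 and 6, an intensity trend, array weights and the replicate block (0.47 each). Dll4 passed with both filters, the trend (-0.38) and array weights (-0.40).

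The members changed numbered 5 and became 3 with all probe sets tested and against a 1.5-fold change and 1 without moderation. The rises became 1, 1 and 0 there, and the falls 1 without moderation. With 1 array left out, 4 to 5 members changed. The filters at 5 and 6, the trend and array weights each gave 7 changed members, and quantile normalization again gave 6. Among all genes, those changed numbered 2148 and 2236 with the filters at 5 and 6 and 2276 with the trend. They numbered 706, 598 and 282 with all probe sets, no moderation and the 1.5-fold test, and 823 to 1230 with 1 array left out. Rises were 480, 402 and 255, and 548 to 709 with 1 array left out. Falls were 226, 196 and 27, and 275 to 585 with 1 array left out, but 1130 and 1292 with the filters at 5 and 6 and 1227 with the trend. Other pathway genes changed numbered 29, and 12 without moderation and 13 against a 1.5-fold change. The difference of Mib1 turned to 0.038 under cyclic loess and ran from -0.055 to 0.012 with 1 array left out, turning without N1ICD replicate 1. That of Adam10 turned to 0.018 under cyclic loess and ran from -0.084 to 0.024, turning without the same array. The cause of these shifts was not tested. Same-numbered arrays correlated by 0.23, 0.01 and 0.20 in their deviations from the group means, and not every array correlated best with its own number, so the labels' numbers were not taken as pairs. With the replicate block 1518 genes changed, against 1574.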

Other observations

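N1ICD replicate 2 was the lowest N1ICD array for Dll1 and Dll3 and also for all 14 genes that fell in the 6 pathway lists, among them Hes6, Insm1, Neurl1a, Lfng and Ccn3. Jag2, the other ligand that fell, was lowest in N1ICD replicate 3 (7.04, against 7.24 in replicate 2 and 7.35 in replicate 1). Over all 726 genes that fell, 62.8% were lowest in this array, 29.3% in replicate 1 and 7.85% in replicate 3. Among the 848 genes that rose, the highest array was more evenly spread, with 36%, 35.6% and 28.4% in replicates 1, 2 and 3. The level of Notch1 was lowest in the same array (7.49 against 7.72 and 8.07), while Hes5 (11.2, 11.2 and 10.8 in replicates 1, 2 and 3) and Hes1 (9.53, 9.64 and 9.57) were not.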
